A study of Mus musculus with 3 samples.

Results

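The kinesin motors, centromere proteins and spindle regulators that carry a cell through mitosis were followed in mouse epiblast stem cells (EpiSCs), which are pluripotent cells of the post-implantation embryo kept in culture. Members were taken by name: every gene whose symbol begins with Kif and a digit (35 kinesins) or with Cenp and a letter (21 genes), and 17 mitosis and proliferation genes listed singly. In all, 73 of the 17209 genes in the tables met this rule. The cells were of strain 129 at passage 1, grown on gelatin in serum with the small molecules IWR1 and Y27, and RNA was sequenced from 1 library of each of 3 groups. IWR1, which stabilises Axin and so lowers canonical Wnt signalling, was given at 2 µM for 12 h, and Y27, a name that the labels do not expand, at 0.5 µM for 12 h. The untreated control (NT) had been left without inhibitors overnight, and the labels do not say whether the treated cells had first been without them. With 1 library per group no difference could be set against the spread between cultures, so sizes are given with 95% intervals that cover counting error only.

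Kinesins are motors that walk along microtubules or take them apart. Some move organelles and membrane cargo at all times, while others act at mitosis, where they slide spindle poles apart, move chromosomes and build the midzone at which the cell divides. Centromere proteins mark the site on each chromosome on which the kinetochore forms, the kinetochore binds spindle microtubules, and the spindle assembly checkpoint holds back the anaphase-promoting complex until all chromosomes are attached. Pluripotent cells divide quickly and carry much of this RNA. Transcription of many of these genes peaks late in the cell cycle through promoters that hold a CCAAT box, bound by NF-Y, and a cell cycle genes homology region (CHR), bound by MuvB complexes with B-Myb or the repressive DREAM complex.

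RefSeq promoter windows of the GRCm38.p6 assembly, from 250 bases before to 50 after each start, were found for 64 members (72 windows). They were searched on both strands for the CCAAT box, which reads ATTGG on the opposite strand, and for the core of the CHR element, TTTGAA, which reads TTCAAA there. CCAAT stood in 44 member windows (61.1%), against 37.4% of all 32851 windows of 300 bases, and TTTGAA in 29 (40.3%), against 17.9%. Both motifs together stood in 24 member windows (33.3%), against 6.95% of all windows. In 1 member window, of a centromere protein, the motifs overlapped. The windows of mitotic kinesins, checkpoint genes, mitotic kinases and spindle factors, cyclins and proliferation markers held TTTGAA in 21 of 25 cases (84%) and CCAAT in 19 (76%). The 20 windows of centromere proteins held CCAAT in 15 and TTTGAA in 4. The 13 windows of transport kinesins held them in 4 and 1, and none held both. These matches are descriptions of the letters, not of sites in use.

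The promoters of 7 members are printed because they let genes with different RNA levels be read side by side. Cenpf (chr1:189688075-189688236, minus strand), Mki67 (chr7:135716368-135716529, minus strand) and Kif11 (chr19:37376232-37376393, plus strand) belong to genes whose RNA was higher in both treated libraries. Cdc20 (chr4:118437332-118437493, minus strand), Cdk1 (chr10:69352901-69353062, minus strand) and Ccnb2 (chr9:70421543-70421704, minus strand) belong to genes that stayed within 1.5-fold in every comparison, and Kif21a (chr15:91049940-91050101, minus strand) to a transport kinesin with neither motif. Each runs 5′ to 3′ on the gene's own strand from 150 bases before to 12 after the start, with both motifs in capitals on either strand.
Cenpf: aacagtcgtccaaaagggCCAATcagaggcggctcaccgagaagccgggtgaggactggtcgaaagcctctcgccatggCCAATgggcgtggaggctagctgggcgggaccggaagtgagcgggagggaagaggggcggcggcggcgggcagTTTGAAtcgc
Mki67: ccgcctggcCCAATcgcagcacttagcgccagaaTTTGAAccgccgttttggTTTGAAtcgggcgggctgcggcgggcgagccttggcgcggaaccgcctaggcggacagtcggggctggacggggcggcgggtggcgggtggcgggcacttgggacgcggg
Kif11: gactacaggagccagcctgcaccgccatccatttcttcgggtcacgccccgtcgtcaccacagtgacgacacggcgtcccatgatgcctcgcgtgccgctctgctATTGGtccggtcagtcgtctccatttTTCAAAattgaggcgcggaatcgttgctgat
Cdc20: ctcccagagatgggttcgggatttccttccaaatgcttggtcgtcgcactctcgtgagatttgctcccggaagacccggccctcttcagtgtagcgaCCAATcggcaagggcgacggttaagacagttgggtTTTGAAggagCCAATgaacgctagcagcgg
Cdk1: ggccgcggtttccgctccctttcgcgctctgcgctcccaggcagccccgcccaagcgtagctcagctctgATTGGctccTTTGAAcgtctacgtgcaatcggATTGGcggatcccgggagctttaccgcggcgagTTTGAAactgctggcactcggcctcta
Ccnb2: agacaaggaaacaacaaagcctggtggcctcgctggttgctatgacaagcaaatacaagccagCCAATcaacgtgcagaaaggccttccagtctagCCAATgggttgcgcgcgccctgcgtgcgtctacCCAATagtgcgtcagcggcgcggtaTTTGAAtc
Kif21a: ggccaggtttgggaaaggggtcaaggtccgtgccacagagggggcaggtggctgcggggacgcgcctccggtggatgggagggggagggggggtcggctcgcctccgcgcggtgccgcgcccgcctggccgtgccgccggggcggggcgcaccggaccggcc
Both motifs stood in the first 6 promoters, of which 3 are of genes that were higher in the treated libraries and 3 of genes that were not. Kif21a, whose RNA was 1.73-fold higher in IWR1 than in NT, had neither. These 7 were picked by hand, so the balance among them does not describe the members as a whole. Among other members higher in both treated libraries, the full window of Aspm held both motifs. Those of Bub1, Cenpe, Cenpc1 and Cenpq held CCAAT alone, those of Kif15 and Kif20b TTTGAA alone, and those of Kif18a and Cenpj neither.

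The libraries held 5767550, 5607725 and 5459332 estimated reads in NT, IWR1 and Y27. All 8 EpiSC markers checked, among them Pou5f1 and Nanog, passed the level filter, but they were not level across libraries. In IWR1 5 of them (62.5%) were at least 1.5-fold above NT, beside 10.8% of all genes. These were Fgf5 (3.29-fold), Utf1 (2.32-fold), Otx2 (2.01-fold), Dnmt3b (1.98-fold) and Sox2 (1.65-fold). None was in Y27, beside 14.9%. Pou5f1 and Nanog were lower than NT in both treated libraries, by less than 1.5-fold. Of the markers of other cells, 6 of the 8 fibroblast genes listed passed it, with Lum in no table, and together held 118 CPM in NT, 74.0 in IWR1 and 57.3 in Y27, where CPM scales reads to a common library size. Most of this sum was Col1a1, at 82.3, 54.7 and 31.0 CPM. Pdgfrb ran otherwise, with 78, 11 and 67 reads, lowest in IWR1. The 8 of 10 neuron genes that passed held 358, 333 and 243 CPM, 2 of 6 ciliated cell genes held 7.43, 15.9 and 15.1 CPM, and of the male germ cell genes Sycp3 was listed below the filter while Ddx4, Dazl, Tnp1, Prm1 and Acrv1 were in no table. RNA from the whole culture was measured, so a smaller share of cells in mitosis and less RNA per mitotic cell cannot be told apart.

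Of the 73 members, 70 were listed in every table and 68 passed the filter of a mean of at least 1 CPM. The 5 below it were kinesins. Kif6 had 0, 5 and 2 reads in NT, IWR1 and Y27, Kif17, a motor of cilia and dendrites, had 0, 2 and 0, and Kif19a had 2, 0 and 2. Kif27 had 2, 4 and 2 reads, and Kif9, a kinesin of cilia, had 7, 2 and 6. These counts lie too low for any difference to be read. Counts of 14 members were not whole numbers in at least 1 library, as can arise when reads that match several genes are shared out, so the counts are uncertain for Cenpb, Cenpf, Cenpl, Kif1a, Kif1c, Kif2a, Kif3a, Kif5b, Kif11, Kif15, Kif24, Ndc80, Nuf2 and Tpx2. Whether libraries or counts kept strand was not stated, so sense and antisense RNA cannot be told apart.

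Levels of different genes are compared per transcript length, as FPKM (fragments per kilobase of transcript, scaled to library size). In NT the highest member was Cdc20, the activator of the anaphase-promoting complex that the checkpoint restrains, at 204 FPKM, followed by Top2a, the topoisomerase that untangles sister chromatids, at 132. In IWR1 this order was turned, with Top2a at 198 and Cdc20 at 166 FPKM, and in Y27 Top2a stood at 228 and Cdc20 at 159. The counting intervals of this pair did not overlap in any library (196 to 213 FPKM for Cdc20 and 128 to 136 for Top2a in NT, 158 to 174 and 193 to 204 in IWR1, 152 to 168 and 223 to 234 in Y27). The levels of Top2a and Cdc20 include the GC and length trend described below. On the log2 scale against NT, that trend was 0.31 in IWR1 and 0.48 in Y27 at the GC content and length of Top2a. At those of Cdc20 it was -0.19 and -0.24. Whether the order would turn without the trend was not tested. Next in NT came the mitotic kinase Plk1 at 121 FPKM and cyclin B1 (Ccnb1) at 108. Below them Kif20a, a kinesin of the spindle midzone, stood at 98.0 FPKM (93.7 to 102) and the checkpoint protein Bub3 at 97.3 (91.8 to 103), within counting error of each other.

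**Figure D1:**
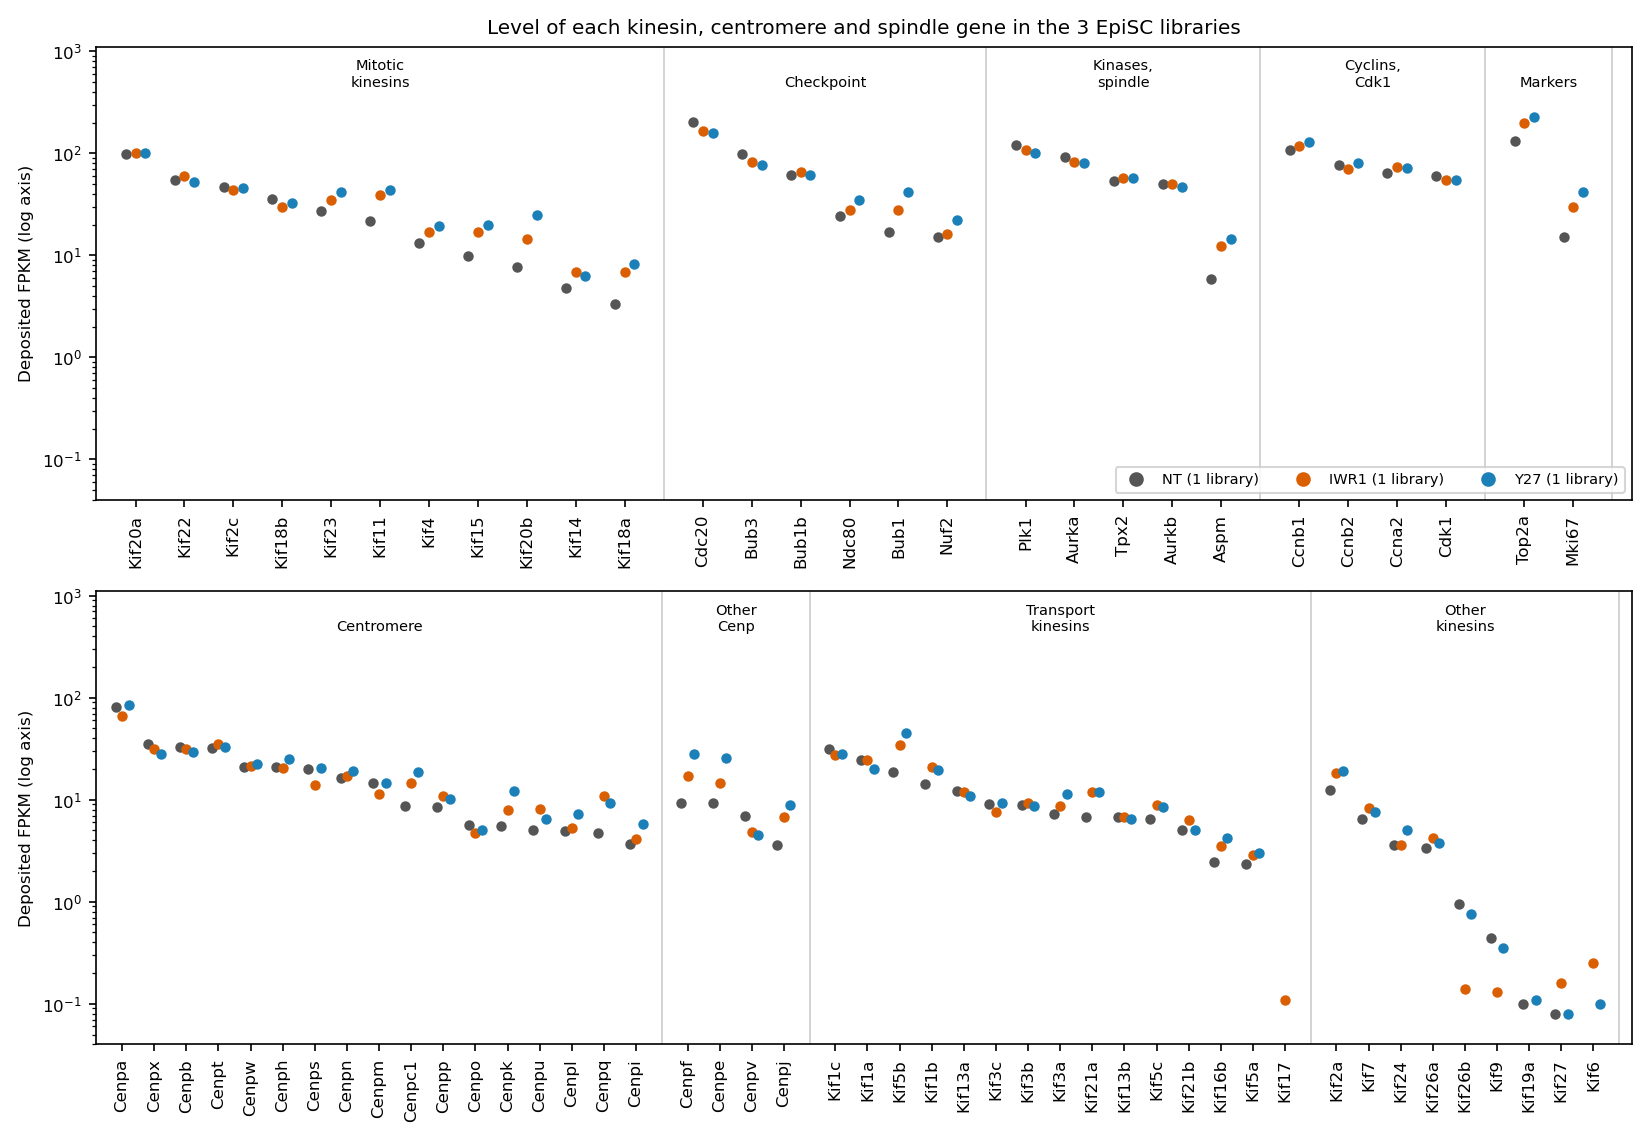
Levels of the members in FPKM on a log axis, by role, with 1 point per library for NT, IWR1 and Y27 and no point where a gene was not listed. The highest members in NT are Cdc20 at 204 and Top2a at 132 FPKM, while Kif26b lies lowest of the compared members at 0.95.

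Together the members held 0.644% of the reads in NT, 0.757% in IWR1 and 0.838% in Y27. Differences between libraries were taken from the counts, scaled to CPM, on a log2 scale after adding 1 CPM, and a member was counted as higher or lower when it was at least 1.5-fold apart on that scale. Folds printed for single genes are ratios of CPM without the added 1. In IWR1 against NT, 15 of 68 members (22.1%) were higher and 1 (1.47%) was lower, against 10.8% and 6.37% of all 12955 genes compared. In Y27 against NT, 17 (25.0%) were higher and 1 (1.47%) was lower, against 14.9% and 5.53% of all genes. The median log2 difference of the members was 0.10 in IWR1 and 0.18 in Y27 against NT, beside -0.00 and -0.02 over all genes. Both comparisons share the NT library. At a 2-fold threshold 2 members were higher and 1 lower in IWR1, against 2.28% and 2.25% of all genes. In Y27 11 members (16.2%) were at least 2-fold higher and none lower, against 5.58% and 1.34%.

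**Figure D2:**
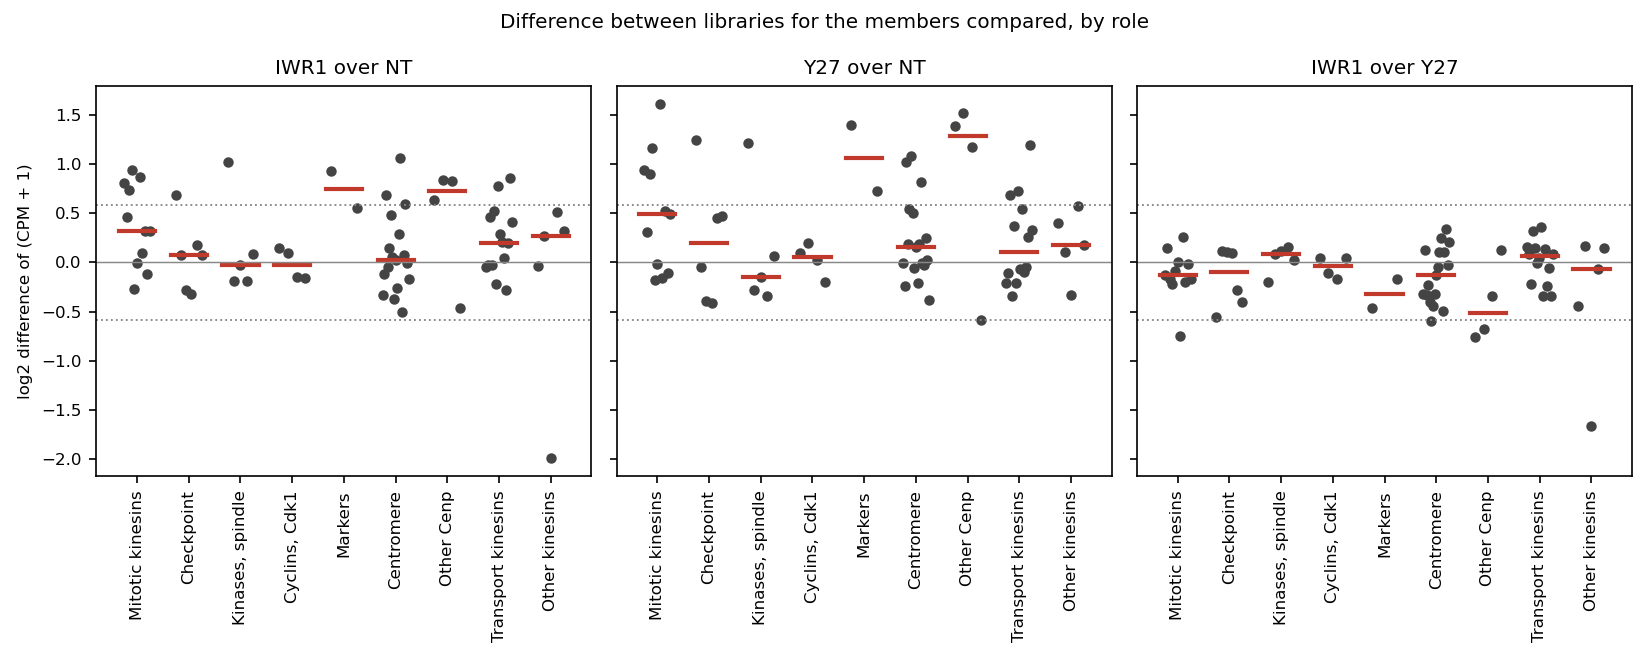
Log2 differences of CPM plus 1 for the 68 compared members in the 3 comparisons, by role, with 1 point per gene, red bars at role medians and dotted lines at 1.5-fold. Mitotic kinesins spread from Kif18b at -0.27 to Kif18a at 0.95 in IWR1, whereas the cyclins and Cdk1 lie between -0.16 and 0.15.

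Of the 11 mitotic kinesins 4 (36.4%) were at least 1.5-fold above NT in IWR1 and 4 in Y27, beside 10.8% and 14.9% of all genes. They were Kif11, Kif15, Kif18a and Kif20b in each. With the GC and length trend described below removed, 0 were higher in IWR1 and 1 in Y27, beside 6.58% and 7.46% of all genes. Kif20b, a motor needed for the final cut between daughter cells, had 7.64 FPKM in NT, 14.4 in IWR1 and 24.9 in Y27. It was 1.84-fold higher in IWR1 (1.58 to 2.16) and 3.12-fold higher in Y27 (2.70 to 3.61), the highest fold of any compared member in Y27. Kif11, the Eg5 motor that pushes spindle poles apart, stood at 21.8, 39.3 and 43.9 FPKM, which is 1.76-fold (1.60 to 1.95) and 1.93-fold (1.75 to 2.13) above NT. The intervals of both treated libraries lay clear of NT for both motors. Kif15, which can share the work of Kif11, stood at 9.93, 17.1 and 19.6 FPKM, 1.69-fold and 1.89-fold above NT. Kif18a, which dampens chromosome movement at the metaphase plate, stood at 3.36, 6.86 and 8.25 FPKM, 2.00-fold (1.49 to 2.72) and 2.35-fold (1.76 to 3.18) above NT. NT was the lowest library for each of these 4.

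The other mitotic motors stayed inside the threshold, some of them near level and some above NT. Kif20a, the highest mitotic kinesin, stood at 98.0, 99.7 and 102 FPKM in NT, IWR1 and Y27, a fold of 0.998 in IWR1 (0.937 to 1.06) and 0.993 in Y27 (0.932 to 1.06). Kif14, which acts in cytokinesis and is the lowest of these motors by its mean level, stood at 4.82, 6.80 and 6.27 FPKM, 1.38-fold above NT in IWR1 (1.17 to 1.64). In Y27 Kif23, which bundles midzone microtubules, was 1.45-fold (1.30 to 1.62) and Kif4, a chromosome-bound motor, 1.41-fold (1.23 to 1.62) above NT. The intervals of Kif14, Kif23 and Kif4 lay clear of equality. Kif2c, Kif4, Kif18b, Kif22 and Kif23 lay between -0.27 and 0.33 on the log2 scale in IWR1 and between -0.18 and 0.53 in Y27. The median over the 11 mitotic kinesins was 0.33 in IWR1 and 0.49 in Y27.

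Transport kinesins had 14 compared members, and 12 in IWR1 and 11 in Y27 stayed within 1.5-fold of NT. The 2 higher in IWR1 (14.3%) and 3 higher in Y27 (21.4%) stood beside 10.8% and 14.9% of all genes. Kif5b, the ubiquitous heavy chain of conventional kinesin and the highest of them by mean level, stood at 18.8, 34.8 and 45.1 FPKM in NT, IWR1 and Y27, 1.82-fold (1.65 to 2.00) and 2.30-fold (2.10 to 2.53) above NT. Kif21a, which restrains microtubule growth at the cell cortex, stood at 6.83, 11.9 and 11.8 FPKM, 1.73-fold (1.48 to 2.03) and 1.67-fold (1.43 to 1.97) above NT. Kif16b, a motor of early endosomes, stood at 2.46, 3.53 and 4.23 FPKM, 1.41-fold in IWR1 and 1.65-fold (1.23 to 2.22) in Y27. Kif1c, the highest transport kinesin in NT, was at 31.1, 27.2 and 28.1 FPKM, and the least abundant of those compared, the neuronal heavy chain Kif5a, at 2.35, 2.89 and 3.04. Kif1a, a carrier of synaptic vesicle precursors, was at 24.6, 24.7 and 20.2 FPKM. The sum of the neuron markers, at 358, 333 and 243 CPM, was also lowest in Y27, but most of it was Nefl, at 236, 187 and 139 CPM. Of the 8 markers compared, 4 (50%) were at least 1.5-fold lower in Y27 than in NT, beside 5.53% of all genes. Map2 went the other way, at 16.5, 21.1 and 30.6 CPM. The part of neuron RNA in the Kif1a values was not tested. The median of the transport kinesins was 0.20 in IWR1 and 0.11 in Y27.

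Of the remaining kinesins 5 passed the filter. The highest, Kif2a, which takes microtubule ends apart, stood at 12.5, 18.3 and 19.2 FPKM, with log2 differences of 0.51 and 0.57 against NT, just inside the threshold at 0.58. Kif26b, a kinesin without motor activity that acts downstream of Wnt5a and Ror receptors, had 41 reads in NT, 6 in IWR1 and 31 in Y27. It was 6.77-fold lower in IWR1 than in NT (2.86 to 19.5) and 5.18-fold lower than in Y27 (2.13 to 15.2). This was the only member at least 2-fold lower in IWR1, on a log2 difference of -1.99 against NT, and at 0.95, 0.14 and 0.76 FPKM it was also the lowest compared member. Kif7 and Kif26a, the former a regulator of Hedgehog signalling, and Kif24 stayed within 1.5-fold.

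Centromere proteins differed little as a group, with medians of 0.02 in IWR1 and 0.15 in Y27 over 17 compared genes. Cenpa, the histone H3 variant that marks the centromere and the highest of them, was at 81.8, 65.6 and 84.7 FPKM, lowest in IWR1. Cenpi, the lowest by its mean, was at 3.67, 4.17 and 5.73 FPKM. Of the 17, 3 (17.6%) were higher in IWR1 and 3 in Y27, beside 10.8% and 14.9% of all genes, so the share in Y27 was near the background. These were Cenpq and Cenpc1 in both, Cenpu in IWR1 and Cenpk in Y27. Cenpq had 39 reads in NT, 87 in IWR1 and 72 in Y27, 2.25-fold (1.53 to 3.38) and 1.87-fold (1.25 to 2.84) above NT. Cenpc1, which ties centromeric nucleosomes to the outer kinetochore, stood at 8.74, 14.6 and 18.8 FPKM, 1.63-fold (1.34 to 2.00) and 2.06-fold (1.70 to 2.51) above NT. Both of these were lowest in NT. Cenpu was 1.55-fold higher in IWR1 (1.14 to 2.11) with 73 reads in NT, 112 in IWR1 and 87 in Y27. Cenpk was 2.27-fold higher in Y27 (1.56 to 3.37) with 41, 59 and 92 reads. The intervals of these low counts are wide.

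The 4 other Cenp genes code for proteins that are not part of the constitutive centromere. Cenpe, a kinesin that carries chromosomes to the metaphase plate, had 9.24 FPKM in NT, 14.7 in IWR1 and 25.6 in Y27, 1.56-fold (1.38 to 1.77) and 2.65-fold (2.37 to 2.97) above NT. Cenpf, a large coiled-coil protein of the nuclear envelope and outer kinetochore, had 9.37, 17.2 and 28.2 FPKM, 1.79-fold (1.62 to 1.99) and 2.88-fold (2.63 to 3.16) above NT. Cenpj, a centriole protein needed for centriole length, had 3.64, 6.77 and 8.87 FPKM, 1.82-fold (1.41 to 2.38) and 2.33-fold (1.82 to 3.01) above NT. All 3 were lowest in NT and highest in Y27. Cenpv went the other way, with 41 reads in NT, 28 in IWR1 and 25 in Y27, 1.62-fold lower in Y27 within an interval that reaches past equality (0.961 to 2.78).

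Of the 6 kinetochore and checkpoint genes 1 (16.7%) was higher in each treated library, beside 10.8% of all genes in IWR1 and 14.9% in Y27. Bub1, the checkpoint kinase that marks centromeric chromatin for shugoshin, had 16.8 FPKM in NT, 27.7 in IWR1 and 41.9 in Y27, 1.62-fold (1.43 to 1.83) and 2.39-fold (2.13 to 2.69) above NT. Its relatives did not share this. Bub1b, the BubR1 subunit of the mitotic checkpoint complex, was at 60.8, 65.2 and 61.5 FPKM, and Bub3, which recruits both to the kinetochore, at 97.3, 81.5 and 77.5. Cdc20 was 1.25-fold lower in IWR1 (1.18 to 1.34) and 1.34-fold lower in Y27 (1.25 to 1.43). Ndc80 and Nuf2, partners in the complex that grips the microtubule, stood at 24.2, 27.9 and 34.7 FPKM and at 15.1, 16.2 and 22.1 FPKM, 1.38-fold and 1.40-fold above NT in Y27.

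The mitotic kinases were near level or slightly lower in the treated libraries. Plk1, which acts from centrosome maturation to cytokinesis, was at 121, 109 and 99.9 FPKM, 1.14-fold lower in IWR1 (1.06 to 1.22) and 1.27-fold lower in Y27 (1.17 to 1.37). Aurka, the spindle pole kinase, was at 92.6, 82.5 and 80.1 FPKM, and Aurkb, the kinase that corrects wrong attachments, at 49.8, 49.9 and 47.1. Tpx2, which activates Aurka on the spindle, was at 52.9, 57.1 and 57.7 FPKM. Aspm, a protein of spindle poles that is the lowest of this group, went against them with 341 reads in NT, 692 in IWR1 and 790 in Y27. It was 2.05-fold (1.80 to 2.34) and 2.35-fold (2.06 to 2.67) above NT.

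Cdk1 and its cyclins, the engine of entry into mitosis, stayed within 1.2-fold of NT in every treated library. Ccnb1 was at 108, 117 and 129 FPKM and Ccnb2, the other B-type cyclin, at 75.9, 69.9 and 80.5. Ccna2, the cyclin of S and G2 phase, was at 64.3, 72.6 and 72.0 FPKM, and Cdk1 itself at 59.7, 54.4 and 54.1. In contrast, the proliferation antigen Mki67, a coat protein of mitotic chromosomes, had 15.1 FPKM in NT, 29.6 in IWR1 and 41.9 in Y27. It was 1.92-fold (1.77 to 2.08) and 2.65-fold (2.45 to 2.86) above NT. Top2a was 1.47-fold (1.41 to 1.53) and 1.65-fold (1.59 to 1.72) above NT. Among widely used markers of dividing cells, Mki67 and Bub1 were thus at least 1.5-fold above NT in both treated libraries and Top2a in Y27 alone. Cdk1, Ccnb1, Ccnb2, Aurkb and Plk1 stayed within 1.3-fold. With the GC and length trend described below removed, Mki67 was at 0.65 in IWR1 and 0.94 in Y27 on the log2 scale. Bub1 was then at 0.29 and 0.64, and Top2a at 0.24 in both.

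Members that were higher in the treated libraries were mostly low in GC or long. Of the 16 compared members with under 43% GC, 8 (50%) were higher in IWR1 and 9 (56.2%) in Y27, beside 32.8% and 49.2% of all genes in that class, so the share in Y27 was near that of the class. Of the 13 with 43% to under 47%, 6 (46.2%) and 7 (53.8%) were higher, beside 12.7% and 19.0%. Of the 21 with at least 51% GC, none was higher in either, beside 4.12% and 3.94% of that class. In each library 1 (4.76%) was lower, Kif26b in IWR1 and Cenpv in Y27, beside 9.20% and 9.14% of that class. Genes that are not members followed the same course. Below 43% GC the median log2 difference against NT was 0.57 in IWR1 and 0.92 in Y27 for members, and 0.39 and 0.57 for all 2024 such genes. At 51% GC and above it was -0.17 and -0.18 for members, and -0.13 and -0.18 for all 5611 such genes. Across the 68 members Pearson's r between GC content and the log2 difference was -0.56 in IWR1 and -0.70 in Y27 (Spearman's rho -0.65 and -0.77), and across all genes with a GC value r was -0.37 and -0.49. These describe genes measured in the same libraries, which are not independent of each other.

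Length showed a like pattern over all genes, but a less steady one among the members in Y27. The 24 members of at least 5000 bases had a median of 0.35 in both treated libraries, beside 0.18 in IWR1 and 0.26 in Y27 for all 2258 genes of that length. The 16 under 2000 bases had -0.10 and -0.01, beside -0.11 and -0.19 for all 3709 genes. The nuclear RNAs Malat1 and Neat1 were also higher in the treated libraries, Malat1 at 264, 628 and 857 CPM and Neat1 at 21.9, 47.2 and 51.8 CPM, in the order NT, IWR1 and Y27. With the GC and length trend described below removed, Malat1 was still at 0.82 in IWR1 and 1.03 in Y27 on the log2 scale. Neat1 was then at 1.02 and 1.12. How the RNA was selected or broken is not given by library. The part of RNA quality and library making in the differences was not tested.

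**Figure D3:**
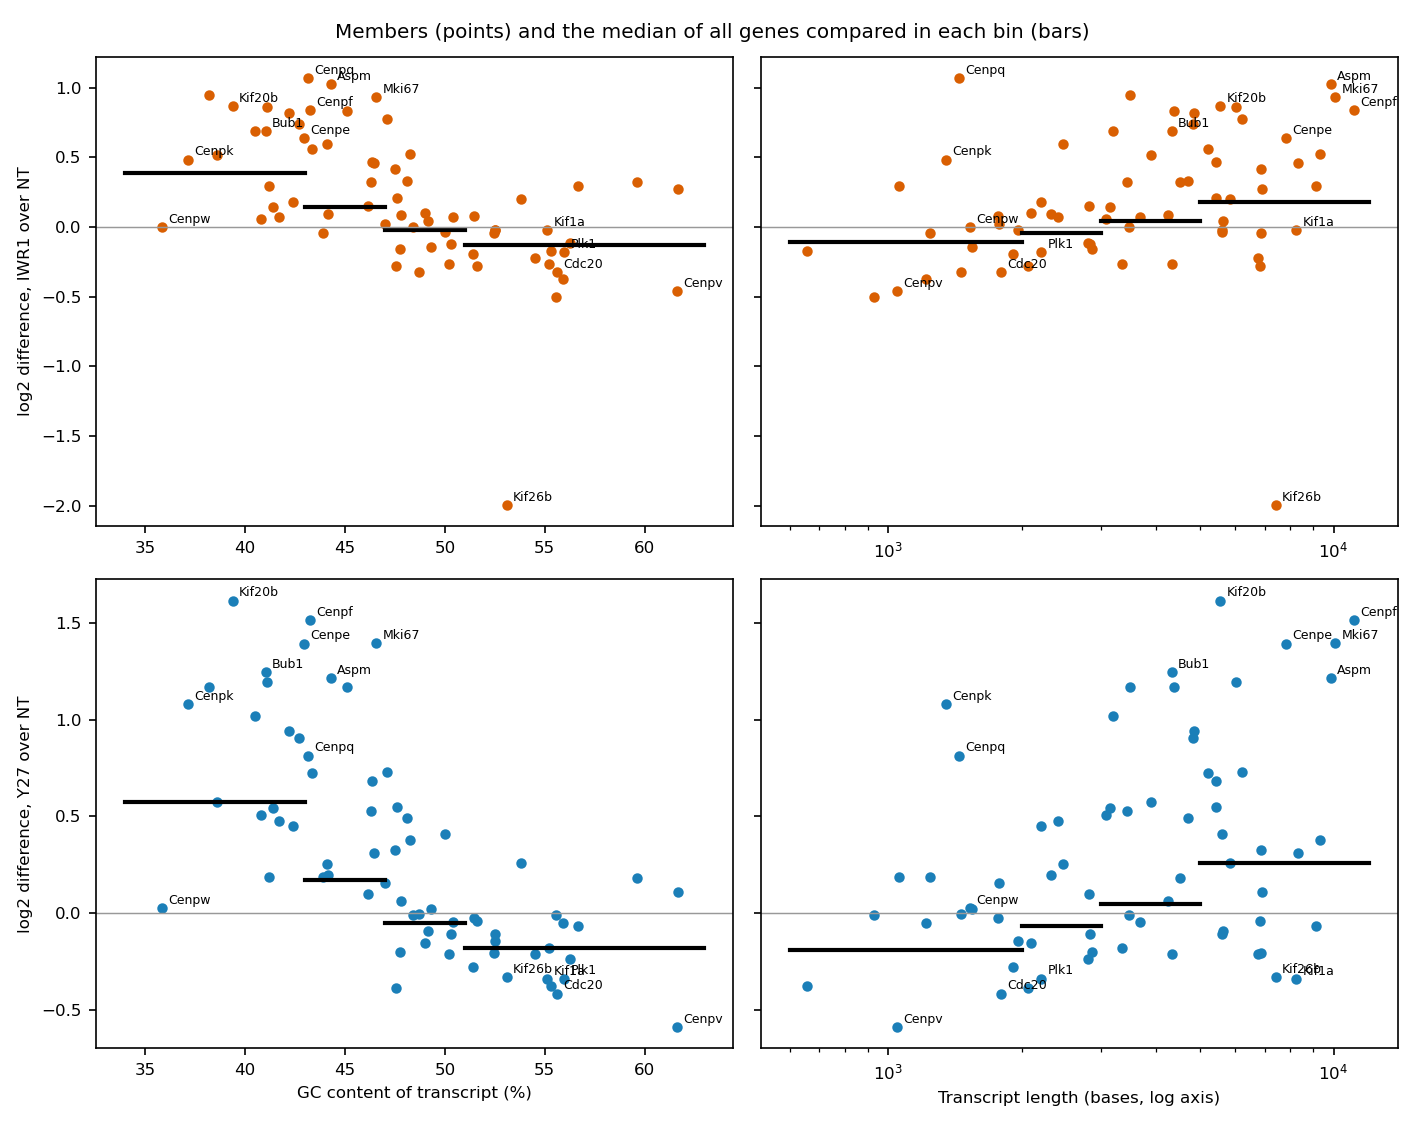
Log2 differences against NT in IWR1 and Y27 plotted against transcript GC content in percent and transcript length in bases, with members as points and bars at the median of all genes in each class. Members under 43% GC lie at medians of 0.57 and 0.92, and those at 51% and above at -0.17 and -0.18.

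A smooth trend in GC content and length over all genes was therefore removed from each log2 difference and the members were counted again. In IWR1, 5 members (7.35%) were then at least 1.5-fold higher than NT, beside 6.58% of all genes, and 1 was lower, beside 6.04%. In Y27, 8 members (11.8%) were higher and none lower, beside 7.46% and 5.38% of all genes. The member medians became 0.06 and 0.08. The 5 in IWR1 were Cenpq at 0.97, Mki67 at 0.65, Cenpj at 0.64, Aspm at 0.62 and Kif21a at 0.61 on the log2 scale. The 8 in Y27 were Mki67 at 0.94, Cenpj at 0.87, Kif20b at 0.75, Cenpf at 0.74, Cenpe at 0.72, Cenpq at 0.70, Cenpk at 0.65 and Bub1 at 0.64. Mki67, Cenpj and Cenpq thus passed 1.5-fold in each treated library by this measure.

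The other motors came back inside the threshold. Kif11 had 0.45 in IWR1 and 0.39 in Y27 after the trend was removed, Kif15 had 0.41 and 0.40, Kif18a had 0.45 and 0.41, and Kif5b had 0.38 and 0.46. Kif23 and Kif4, inside the threshold from the start, stood near these motors in Y27, at 0.37 and 0.36. Top2a had 0.24 in both, Cenpc1 had 0.33 and 0.49, Cenpu 0.46 in IWR1, Kif16b 0.40 in Y27 and Cenpv -0.31 in Y27. Some of the members past the threshold by this measure in Y27 were inside it in IWR1. In IWR1 Kif20b had 0.30, Cenpf 0.34, Cenpe 0.21, Bub1 0.29 and Cenpk 0.19. In Y27 Aspm had 0.58 and Kif21a 0.46. Kif26b was untouched by the trend and remained at -1.99 in IWR1. By role, the mitotic kinesins kept the higher medians among the larger groups, at 0.23 in IWR1 and 0.36 in Y27, while the transport kinesins stood at 0.17 and -0.01 and the centromere proteins at 0.03 and 0.11. Plk1, which was 1.14-fold and 1.27-fold lower as first compared, had -0.01 in IWR1 and -0.12 in Y27 with the trend removed. Cdc20 had -0.14 and -0.18, and Bub3 -0.27 and -0.37. A gene can also lie below the trend. Cenpw, at 35.8% GC, had 183, 181 and 184 reads and stood at -0.38 in IWR1 and -0.55 in Y27 relative to the trend.

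**Figure D4:**
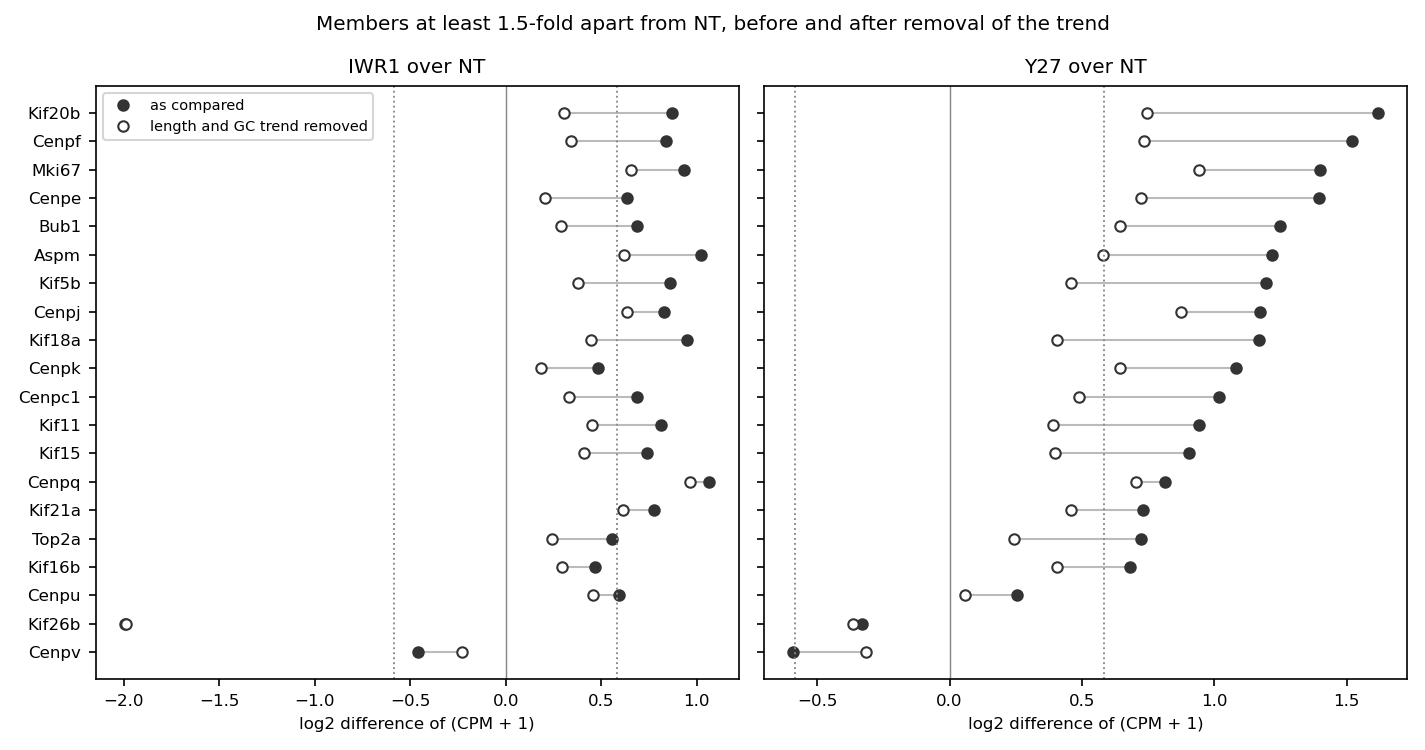
Log2 differences of named members against NT before and after the trend in GC content and length over all genes was removed, for IWR1 and Y27. Mki67 stays above the 1.5-fold line at 0.65 and 0.94, Kif11 moves under it to 0.45 and 0.39, and Kif26b in IWR1 stays at -1.99.

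The treated libraries were closer to each other. In IWR1 against Y27 no member was at least 1.5-fold higher, beside 5.06% of all genes, and 5 (7.35%) were lower, beside 8.2%, so the members' share of lower genes was near the background. They were Cenpe at 1.70-fold lower (1.54 to 1.87), Kif20b at 1.69-fold, Cenpf at 1.60-fold (1.49 to 1.73), Cenpk at 1.56-fold (1.12 to 2.21) and Kif26b. With the trend removed only Kif26b stayed past 1.5-fold, at -1.62, and no member was higher, beside 6.76% of all genes lower and 5.43% higher. By the same measure Cenpe had -0.52, Cenpk -0.46, Kif20b -0.44 and Cenpf -0.39. The median of the members was -0.06 before the trend was removed and 0.02 after it.

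Further genes of the kinetochore were read from a list of 27, of which 6 (22.2%) were higher and none lower in IWR1 than in NT, and 5 (18.5%) higher and none lower in Y27. Over all genes 10.8% were higher in IWR1 and 14.9% in Y27, so the share in Y27 was near the background. With the trend removed 2 of the 27 were higher in IWR1 and 3 in Y27, beside 6.58% and 7.46% of all genes. Ttk, the Mps1 kinase that starts checkpoint signalling, stood at 25.3 CPM in NT, 52.0 in IWR1 and 59.0 in Y27, with 0.80 and 0.88 after the trend was removed. Knl1, the scaffold to which Bub1 binds, was 2.05-fold and 2.85-fold above NT, but at 0.26 and 0.33 after the trend was removed. Sgo2a, a shugoshin that protects centromeric cohesin, was 1.88-fold and 2.26-fold above NT, with 0.41 and 0.42. The list's median was 0.00 in IWR1 and 0.15 in Y27, so most of its genes were near level.

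A list of 35 genes of spindle assembly, mitotic exit and cytokinesis held 4 (11.4%) that were higher and 2 (5.71%) that were lower in IWR1, and 6 (17.1%) higher and 1 (2.86%) lower in Y27, with medians of 0.08 and -0.02. Beside 10.8% and 14.9% of all genes, these shares of higher genes were near the background. Haus3, a subunit of the augmin complex that branches spindle microtubules, was 2.50-fold (2.03 to 3.10) and 2.94-fold (2.40 to 3.63) above NT, and at 0.85 in both after the trend was removed. Its counts were not whole, so its share of reads is uncertain. Ckap5, the microtubule polymerase chTOG, was 1.76-fold (1.61 to 1.92) and 2.38-fold (2.19 to 2.59) above NT, with 0.48 and 0.72. Kifc3, a minus-end directed kinesin outside the rule for members, was lower in both, at 46.9 CPM in NT, 28.8 in IWR1 and 30.3 in Y27, and with log2 values of -0.55 and -0.45 after the trend was removed. Foxm1 and Mybl2, transcription factors of late cell cycle genes, stood at 135, 127 and 125 CPM and at 89.3, 90.2 and 68.5 CPM, and were picked after their values were seen.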

How the data were processed

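RNA-seq tables of 3 libraries, 1 per group as given by the labels, were used. Per the file headers, the columns are transcript length, expected count and FPKM, with 1 row per gene. The expected counts, deposited by the authors without normalization, are estimated reads per gene. The authors' deposited FPKM values could be recomputed from count, length and library total within 2% for 62 of 64, 64 of 66 and 64 of 66 members with over 50 counts. The submitters' processing notes list Bowtie 0.12.2 as a tool and mm8 as the genome build. The count estimator was not given in the sources used here. No coordinates were taken from the tables, and those of promoters come from RefSeq on GRCm38.p6.

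Gene symbols were matched for 17160 of 17209 identifiers (99.7%). A gene absent from a table was taken as 0. CPM values used TMM factors (0.980, 0.998 and 1.02) computed in edgeR 4.0.16 (R 4.3.3). The 12955 genes whose mean reached 1 CPM were compared on log2 of CPM plus 1. Intervals are exact conditional binomial for folds and exact Poisson for levels, at 95%, from rounded counts (scipy 1.17.1). They cover counting error only, and reads are not independent molecules. GC content, from the longest GRCm38 transcript, was found for 99.2% of these genes and for all 73 members. The trend was a polynomial surface of degree 3 in GC content and log length. The steps were tested on simulated data.

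Named are the 17 singly listed genes, members at least 1.5-fold apart with at least 30 reads in the higher library, the highest and lowest of each role by mean FPKM, and members absent from a table. From each list of other genes, up to 4 per comparison past 1.5-fold could be named, and 1 gene that this rule names is not reported here. Members, lists and GC and length classes were chosen with earlier results of these data known. Alternatives were other scalings (library total, upper quartile, DESeq2 1.42.0 size factors), other pseudocounts (0.1 and 5 CPM) and filters, the deposited FPKM, whole counts only, a 2-fold threshold and removal of the GC and length trend.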

Additional observations from a re-analysis of the deposited data

How the results depend on the processing

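The counts of members at least 1.5-fold apart in either direction were 16 for IWR1 over NT, 18 for Y27 over NT and 5 for IWR1 over Y27. With the GC and length trend removed they were 6, 8 and 1, and with a 2-fold threshold 3, 11 and 1. With every other setting they stayed within 12 to 18, 14 to 21 and 4 to 6. The members' median log2 difference ranged over all settings from 0.06 to 0.12 for IWR1 over NT, from 0.08 to 0.24 for Y27 over NT and from -0.09 to 0.02 for IWR1 over Y27. Of the 144 single-gene and role values, 54 moved out of their intervals when the trend was removed. The interval covers counting error for single genes. For roles it is that of the median across genes, or the range across genes for the smallest roles. Each group has 1 library, so no library could be left out. No paired analysis was possible because each group has 1 library, which leaves no pairs of replicates to compare. With 3 reads as the least that a count of 0 excludes, levels under about 0.531 to 0.538 CPM could not be told from absence.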

Other observations

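Condensin and cohesin, the rings that compact mitotic chromosomes and hold sister chromatids together, were the list of cell division genes with the higher values. Of 13 genes compared, 8 were at least 1.5-fold above NT in IWR1 and 8 in Y27, none was lower, beside 10.8% and 14.9% of all genes higher. The medians of the log2 difference were 0.71 and 0.88, beside -0.00 and -0.02 over all genes. With the GC and length trend removed 1 gene was at least 1.5-fold higher in IWR1 and 3 in Y27, beside 6.58% and 7.46% of all genes. Smc3, a core arm of cohesin, stood at 95.4, 175 and 250 CPM in NT, IWR1 and Y27, 1.84-fold (1.65 to 2.05) and 2.62-fold (2.37 to 2.90) above NT. Smc4, a core arm of condensin, was 1.88-fold (1.70 to 2.09) and 2.61-fold (2.37 to 2.89) above NT, and its partner Smc2 1.64-fold and 2.40-fold. Stag2, a cohesin subunit, was 1.89-fold and 2.48-fold above NT. Other subunits of the same complexes were level: Ncapd2 stood at 395, 371 and 355 CPM and Ncaph at 81.7, 76.6 and 81.2 CPM, a pair picked after their values were seen. By that measure the medians of this list were 0.16 and 0.08, with Smc1a at 0.66 and 0.72, Smc3 at 0.52 and 0.84, Smc4 at 0.47 and 0.72, and Stag2 at 0.24 and 0.26.

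The anaphase-promoting complex and its regulators, which end mitosis by marking securin and cyclin B for destruction, had a median log2 difference of -0.10 in IWR1 and -0.23 in Y27 against NT over 14 genes. The 2 genes past 1.5-fold (14.3%), beside 10.8% and 14.9% of all genes higher, were above NT in each treated library. Cdc27 stood at 85.1, 136 and 160 CPM, 1.59-fold (1.42 to 1.79) and 1.88-fold (1.68 to 2.11) above NT, and Anapc10 had 41, 73 and 69 reads. With the trend removed Cdc27 was at 0.12 and 0.06.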
